A study of Homo sapiens with 24 samples.

Results

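The genes described are 8 human sialyltransferases, ST6GALNAC2, ST6GALNAC4, ST6GALNAC6, ST3GAL1, ST3GAL2, ST3GAL3, ST3GAL4, and ST6GAL1, taken by gene symbol from a table of 14493 genes. All 8 had a row and passed the filter on low counts in every comparison. Of the 20 human sialyltransferase genes, 9 were measured here, the ninth being ST3GAL5, and the other 11 were not analysed here. ST6GALNAC2 was chosen by its measured levels in ND-646 and TVB-3166 cells, and untreated levels entered that choice, so all its differences are given as a description without a test. The SEs and intervals shown for it come from the edgeR fit and do not allow for that choice. The other 7 genes were included as its relatives and were tested.

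The cells were SKBR3, an established human breast cancer line with amplified ERBB2, and were profiled by RNA-seq as 24 libraries in 8 groups of 3. In 6 groups, cells were treated to bring on therapy-induced senescence (TIS), a growth arrest after a cancer drug. They were collected at day 7 after a renewal of the drug on day 3. The paper reports that only part of the cells stained as senescent at this dose of ND-646 or TVB-3166. It also reports that, at higher doses, some cells formed colonies after ND-646, TVB-3166, or palbociclib was removed. The drugs were the ACC inhibitor ND-646 at 250 nmol/L, the FASN inhibitor TVB-3166 at 250 nmol/L, the DNA-damaging agents bleomycin at 10 µmol/L and doxorubicin at 10 nmol/L, the CDK4/6 inhibitor palbociclib (Palboclib in the labels) at 1 µmol/L, and the Aurora kinase A inhibitor alisertib at 500 nmol/L. The other groups were untreated cells, which the paper calls proliferative, collected either on day-0 or on day-7. The labels name a refeed on day 3 for the 6 treated groups and none for untreated day-7 cells. If these were not refed, drug and refeeding cannot be told apart in comparisons with day-7 cells. The study calls the senescence that follows a block of fatty acid synthesis FASTIS, which here means the ND-646 and TVB-3166 groups. Every group was the same line at a single dose and time, and nothing in the labels says that the 3 libraries came from separate cultures, so that p-values measure only the spread between these libraries.

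Sialyltransferases are Golgi enzymes that move sialic acid from its activated form, CMP-sialic acid, onto the ends of the sugar chains of glycoproteins and glycolipids. Enzymes named ST3GAL and ST6GAL add it to galactose, and those named ST6GALNAC add it to N-acetylgalactosamine. This is the first sugar of mucin-type O-glycans and is also part of gangliosides. Sialylated chains end many surface proteins of epithelial tumours, where they act as ligands of the Siglec receptors of immune cells and, on some chains, of the selectins.

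RefSeq promoters on GRCh38.p14, covering 250 bases before and 50 bases after a gene start, were at hand for 5 of the 8 genes, ST6GALNAC4, ST6GALNAC6, ST3GAL3, ST3GAL4, and ST6GAL1. The promoters of ST6GALNAC4 and ST6GAL1 are shown because these genes moved in opposite directions in the FASTIS groups. ST6GALNAC4 is at chr9:127916992-127917291 on the minus strand and ST6GAL1 at chr3:186930276-186930575 on the plus strand, both printed 5′ to 3′ on the gene's strand. Capitals mark GC boxes, GGGCGG on either strand.
ST6GALNAC4 promoter: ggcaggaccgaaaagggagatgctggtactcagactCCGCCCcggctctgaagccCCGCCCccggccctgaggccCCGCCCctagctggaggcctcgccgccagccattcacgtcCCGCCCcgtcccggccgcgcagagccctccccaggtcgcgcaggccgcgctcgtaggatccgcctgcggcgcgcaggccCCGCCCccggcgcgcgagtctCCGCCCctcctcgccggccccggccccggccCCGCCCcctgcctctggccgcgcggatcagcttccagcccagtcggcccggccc
ST6GAL1 promoter: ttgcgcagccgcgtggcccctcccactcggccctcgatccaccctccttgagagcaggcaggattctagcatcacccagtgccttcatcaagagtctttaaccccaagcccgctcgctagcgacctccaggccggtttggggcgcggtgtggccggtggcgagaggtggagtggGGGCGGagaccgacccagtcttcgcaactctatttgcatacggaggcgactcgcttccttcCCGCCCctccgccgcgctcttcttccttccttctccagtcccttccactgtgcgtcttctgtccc
The ST6GALNAC4 window held 7 GC boxes and was 79% G and C, whereas the ST6GAL1 window held 2 and was 64% G and C. Neither held a CCAAT box (CCAAT on either strand) or an E-box (CACGTG, which reads the same on both strands). Of 35116 RefSeq promoters of this length, 45% held a GC box, 34.6% a CCAAT box, and 7.26% an E-box. These matches are letters in a window, and binding was not measured.

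The libraries held 29405121 to 44316330 counts, and normalization factors ranged from 0.791 in ND-646 replicate 1 to 1.08. The 6 epithelial markers ERBB2, GRB7, KRT8, KRT18, KRT19, and EPCAM were all measured, and group means of ERBB2 ran from 5687 to 8265 CPM (counts scaled to the normalized total of their library). The keratins were less even, with group means of 2384 to 5486 CPM for KRT8 and 1154 to 3243 CPM for KRT19, both highest in day-0 cells. Against day-0 cells 2 to 3 of the 6 markers were called lower and 0 to 1 higher by edgeR in each TIS group, and their part in the results was not tested. Of the 5 markers of other cell types, only COL1A1 was measured, at 7.62 to 12.3 CPM, and the other 4 were not analysed here. A CPM is a share of the RNA in a library, and in these bulk samples fewer cells that express a gene and less of its RNA per cell cannot be told apart. Each of the 8 genes had at least 22 counts in every library. ST3GAL3, with 22 to 119 counts, ST3GAL2, with 38 to 247, and ST6GALNAC2, with 41 to 666, carried the most counting error.

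On the GRCh37 build, ST6GALNAC2 lies on chromosome 17 at chr17:74561459-74583038 on the minus strand, and ST6GALNAC4 and ST6GALNAC6 lie next to each other on the minus strand of chromosome 9, at chr9:130670165-130679320 and chr9:130647600-130667687. ST3GAL1 is at chr8:134467091-134584169, ST3GAL2 at chr16:70409880-70473140, ST3GAL3 at chr1:44171495-44396837, ST3GAL4 at chr11:126225535-126310239, and ST6GAL1 at chr3:186648114-186796341. ST6GALNAC2 is overlapped along 21580 bases by the lncRNA gene SNHG16 on the opposite strand, with 0 exonic bases in common. SNHG16 differed from day-0 cells by 0.06 (ND-646) and 0.11 (TVB-3166) on the log2 scale, and neither value passed the test (adjusted p = 0.873 and 0.635, edgeR). ST6GALNAC2 also shares 1196 exonic bases with an unnamed gene model on its own strand, ST6GALNAC6 shares 2494, and ST3GAL3 shares 1951. How the authors' counting shared reads between overlapping models, and whether it used strand, is not given in the sources used here, so the levels of these 3 genes are uncertain to that extent. On the opposite strand, lncRNA genes share 578 exonic bases with ST6GALNAC2, 590 with ST3GAL2, and 113 with ST3GAL3, whose levels are uncertain in the same way if strand was not used.

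ST6GALNAC2 acts on core O-glycans, adding sialic acid to their N-acetylgalactosamine. It was a scarce transcript in untreated cells and stood highest in the FASTIS groups. In untreated day-0 cells its level in replicates 1, 2, and 3 was 2.72, 2.46, and 1.81 CPM, and in untreated day-7 cells it was 3.86, 3.94, and 2.26 CPM. In ND-646 cells it was 17.3, 9.61, and 10.4 CPM. In TVB-3166 cells it was 22.3, 15.3, and 17.6 CPM. All 6 FASTIS libraries lay above all other 18, and the lowest of them was 2.44 times the highest of the rest. The share of all genes set apart in this way is not given here.

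In the other TIS groups ST6GALNAC2 stayed within or below the range of untreated cells. Bleomycin cells had 2.86, 2.55, and 1.55 CPM, and doxorubicin cells had 3.41, 2.56, and 1.93 CPM. Alisertib cells had 3.68, 3.22, and 1.86 CPM. Palbociclib cells had 1.19, 1.75, and 1.34 CPM, all below the lowest untreated library.

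The group means of ST6GALNAC2 ran in the order TVB-3166 (18.4 ± 3.56 CPM, SD, n = 3), ND-646 (12.5 ± 4.25), untreated day-7 (3.35 ± 0.948), alisertib (2.92 ± 0.944), doxorubicin (2.64 ± 0.742), untreated day-0 (2.33 ± 0.472), bleomycin (2.32 ± 0.682), and palbociclib (1.43 ± 0.289). The only neighbours in this order whose libraries did not overlap were ND-646 and untreated day-7. Against day-0 cells the log2 fold-change was 2.40 (SE 0.29) in ND-646 and 2.98 (SE 0.20) in TVB-3166 cells, or 5.30-fold and 7.90-fold. As the gene was chosen by these levels, the SEs describe the spread of libraries and are no test. With day-7 cells as the reference it was 1.88 and 2.46. Without ND-646 replicate 1, the library with the lowest normalization factor, the ND-646 value was 2.10. Replicate 1 was the highest library of ST6GALNAC2 in 6 of 8 groups and replicate 3 the lowest in 5, and between libraries of the same number the log2 difference from day-0 cells was 1.94 to 2.65 for ND-646 and 2.60 to 3.25 for TVB-3166.

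**Figure D1:**
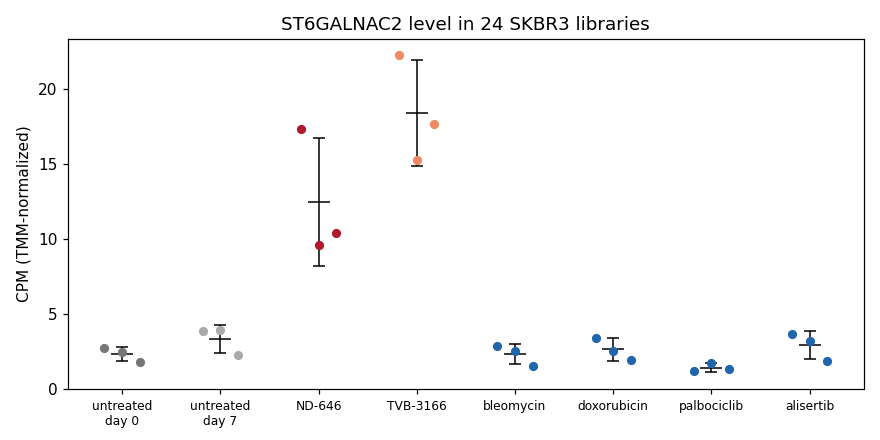
ST6GALNAC2 level by group. The vertical axis is CPM on a linear scale, each point is 1 library, and the bars are the mean ± SD of 3 libraries. The 6 libraries of ND-646 and TVB-3166 cells sit between 9.61 and 22.3 CPM, and the other 18 sit between 1.19 and 3.94.

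Untreated day-7 cells were 0.53 (SE 0.26) above day-0 cells for ST6GALNAC2 on the log2 scale, and the lowest day-7 library, at 2.26 CPM, lay below 2 of the 3 day-0 libraries. The level in TVB-3166 cells exceeded that in ND-646 cells by 0.57 (SE 0.26), by 0.60 with the replicate number as a block, and by 0.88 without ND-646 replicate 1. In both of these comparisons the libraries overlapped.

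Relative to transcript length, ST6GALNAC2 was a minor member of the family. The mean over 24 libraries was 1.91 CPM per kilobase of exon, compared to 28.9 for ST3GAL4, 28.2 for ST6GALNAC4, 16.9 for ST3GAL1, 11.5 for ST6GAL1, 3.69 for ST6GALNAC6, 0.344 for ST3GAL2, and 0.105 for ST3GAL3. Of the summed CPM per kilobase of the 8 genes, ST6GALNAC2 made up 0.860% ± 0.107 in day-0 cells, 4.29% ± 1.35 in ND-646 cells, and 6.38% ± 1.13 in TVB-3166 cells (SD, n = 3). The sum itself was 89.6 ± 7.76 in day-0 cells, 96.1 ± 2.56 in ND-646 cells, and 95.8 ± 3.27 in TVB-3166 cells. In the same 3 groups the share of ST6GALNAC4 was 39.4% ± 1.56, 21.1% ± 0.937, and 24.4% ± 0.389, and that of ST3GAL1 was 11.3% ± 2.30, 24.1% ± 5.66, and 21.7% ± 0.215. Exon lengths are those of all annotated exons of a gene, which are longer than a single transcript, most of all for ST3GAL3.

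Next, the 7 other genes were compared with day-0 cells. A gene was called at a Benjamini-Hochberg adjusted p-value under 0.05 over all genes tested, using edgeR's quasi-likelihood test. In ND-646 cells, 4 of 7 were called, where 37.9% of all genes tested were called. In TVB-3166 cells the number was also 4, against 55.1% of all genes. It was 5 with bleomycin (49.4% of all genes), 4 with doxorubicin (48.4%), 4 with palbociclib (53.2%), and 3 with alisertib (37.3%). At a fold-change of at least 2 as well, the members called were 2 with ND-646 (19.5% of all genes), 2 with TVB-3166 (17.4%), 0 with bleomycin (18.3%), 2 with doxorubicin (12.5%), 0 with palbociclib (16.4%), and 1 with alisertib (7.44%). These counts of 7 lie near the share of all genes called, so the calls are read gene by gene and not as a result about the family. With either inhibitor of fatty acid synthesis the called genes were ST3GAL1 and ST6GAL1, which rose, and ST6GALNAC4 and ST3GAL2, which fell. These comparisons share the day-0 libraries.

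**Figure D2:**
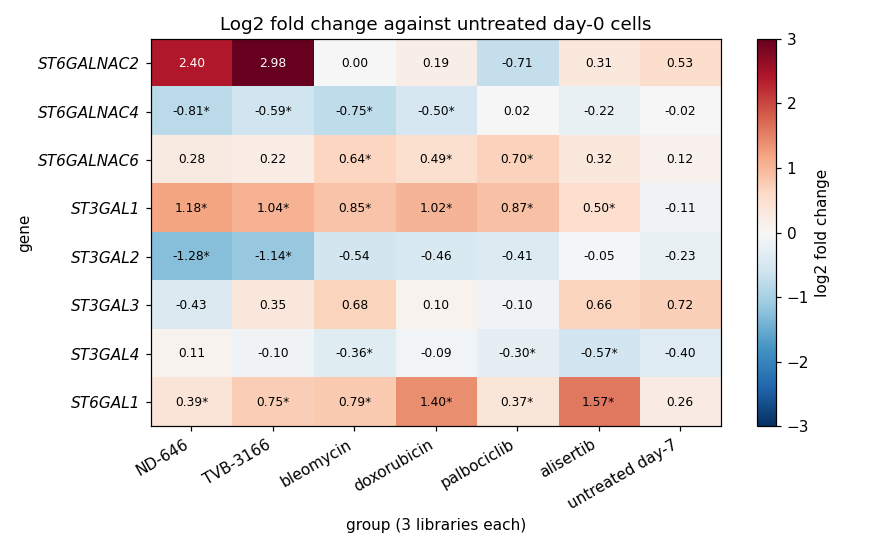
Log2 fold changes of the 8 genes against untreated day-0 cells. Rows are genes, columns are groups of 3 libraries, red is higher and blue lower, and an asterisk marks a gene called by edgeR's test at 0.05 after adjustment, which was not applied to ST6GALNAC2. ST3GAL1 and ST6GAL1 carry an asterisk in all 6 TIS groups, and ST3GAL2 in the ND-646 and TVB-3166 columns.

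ST3GAL1 caps the galactose of core O-glycans with sialic acid, the acceptor that it shares with ST3GAL2. ST3GAL1 rose in all 6 TIS groups. Its level was 116, 82.2, and 69.8 CPM in day-0 replicates 1, 2, and 3, and 153, 226, and 229 CPM in ND-646 cells. In TVB-3166 cells it was 182, 176, and 189 CPM. Every library of every TIS group lay above every untreated library, the highest of which was day-0 replicate 1. The log2 fold-change was 1.18 (SE 0.23) in ND-646 cells and 1.04 (SE 0.16) in TVB-3166 cells (adjusted p = 0.0045 and 0.000222, edgeR). In the other groups it was 1.02 with doxorubicin, 0.87 with palbociclib, 0.85 with bleomycin, and 0.50 with alisertib (adjusted p = 0.00066, 0.00122, 0.0032, and 0.0273, edgeR). The alisertib call was lost when any 1 of 5 of the 6 libraries was left out, and it held without day-0 replicate 1 (0.75).

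ST3GAL2 moved the other way in the FASTIS groups. Day-0 cells had 5.26, 4.80, and 3.73 CPM, whereas ND-646 cells had 1.62, 1.97, and 2.10 CPM and TVB-3166 cells had 1.91, 2.37, and 1.95 CPM. The log2 fold-change was −1.28 (SE 0.25) and −1.14 (SE 0.22), respectively (adjusted p = 0.00458 and 0.00101, edgeR). With bleomycin, doxorubicin, palbociclib, and alisertib the values were −0.54, −0.46, −0.41, and −0.05, and none passed the test (adjusted p = 0.0693, 0.0855, 0.189, and 0.876, edgeR). Only the lowest palbociclib library, at 2.32 CPM, reached into the FASTIS range of 1.62 to 2.37 CPM.

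ST6GAL1, which adds sialic acid to the galactose of N-glycan chains, rose in all 6 TIS groups too, and most with alisertib and doxorubicin. Day-0 cells had 73.9, 76.7, and 72.2 CPM. Alisertib cells had 263, 187, and 216 CPM, and doxorubicin cells had 203, 192, and 189 CPM. The log2 fold-change was 1.57 (SE 0.12) and 1.40 (SE 0.08), respectively (adjusted p = 4.15e-05 and 5.71e-06, edgeR). Bleomycin cells varied most in proportion, with 162, 86.2, and 137 CPM and a log2 fold-change of 0.79 (adjusted p = 0.00698, edgeR).

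In the FASTIS groups ST6GAL1 was raised less. TVB-3166 cells had 127, 124, and 123 CPM, which gave a log2 fold-change of 0.75 (SE 0.09, adjusted p = 3.1e-05, edgeR). ND-646 cells had 94.2, 95.5, and 104 CPM, which overlapped the 77.8 to 95.8 CPM of untreated day-7 cells. Against day-0 cells ND-646 gave 0.39 (SE 0.13, adjusted p = 0.0402, edgeR), a call that was lost without any 1 of 5 of the 6 libraries, and it held without ND-646 replicate 1 (0.42). Against day-7 cells it was 0.15 (adjusted p = 0.406, edgeR). Palbociclib cells had 99.97, 91.3, and 96.7 CPM, with a log2 fold-change of 0.37 against day-0 (adjusted p = 0.00401) and 0.13 against day-7 cells (adjusted p = 0.241, edgeR).

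ST6GALNAC4 extends O-glycans that already carry a sialic acid on galactose. It fell in 4 of 6 TIS groups. Day-0 cells had 94.1, 100.2, and 84.6 CPM, ND-646 cells 57.6, 52.2, and 50.2 CPM, and TVB-3166 cells 61.0, 59.4, and 64.0 CPM. The log2 fold-change was −0.81 (SE 0.14) in ND-646, −0.59 (SE 0.10) in TVB-3166, −0.75 (SE 0.14) in bleomycin, and −0.50 (SE 0.11) in doxorubicin cells (adjusted p = 0.00227, 0.000372, 0.00167, and 0.00501, edgeR). It was −0.22 with alisertib (adjusted p = 0.0805) and 0.02 with palbociclib (adjusted p = 0.879, edgeR). In palbociclib cells the 95% interval of the log2 fold-change was −0.20 to 0.24.

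ST6GALNAC6, an enzyme linked mainly to gangliosides, was called higher in 3 of 6 TIS groups. The log2 fold-change was 0.70 with palbociclib, 0.64 with bleomycin, and 0.49 with doxorubicin (adjusted p = 0.000284, 0.0115, and 0.00559, edgeR). Its level was 14.6, 15.4, and 15.7 CPM in day-0 cells and 24.1, 25.8, and 24.6 CPM in palbociclib cells. In ND-646 and TVB-3166 cells the values were 0.28 and 0.22 (adjusted p = 0.168 and 0.149, edgeR), and all 6 of those libraries, at 15.7 to 19.6 CPM, were level with or above the highest day-0 library.

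ST3GAL4 and ST3GAL3 add sialic acid to the galactose of lactosamine chains, and ST3GAL4 takes part in making the selectin ligand sialyl-Lewis x. ST3GAL4 was among the most abundant of the 8 genes, with 208, 207, and 179.5 CPM in day-0 cells. It fell with alisertib, bleomycin, and palbociclib, with log2 fold-changes of −0.57, −0.36, and −0.30 (adjusted p = 0.00123, 0.0193, and 0.0164, edgeR). In ND-646 and TVB-3166 cells it was 0.11 and −0.10 (adjusted p = 0.59 and 0.377, edgeR), with levels of 249.6, 204, and 192 CPM and of 184, 175, and 192 CPM.

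The reading of ST3GAL4 turned on the untreated group taken as the reference. Untreated day-7 cells had 166, 136, and 146 CPM, all under the day-0 libraries. Against day-7 cells ST3GAL4 was higher in ND-646 (0.53), doxorubicin (0.33), and TVB-3166 cells (0.30), and all 3 passed the test (adjusted p = 0.0248, 0.00833, and 0.0133, edgeR). The falls with alisertib, bleomycin, and palbociclib were not called against day-7 cells, where the values were −0.14, 0.06, and 0.12 (adjusted p = 0.259, 0.658, and 0.301, edgeR).

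ST3GAL3 was the lowest of the 8 per length, and none of its 6 differences from day-0 cells passed the test. Day-0 cells spread from 0.977 to 2.08 CPM, whereas untreated day-7 cells had 2.48, 2.78, and 2.85 CPM. In ND-646 cells its level was 1.95, 1.00, and 0.771 CPM. Against day-7 cells the log2 fold-change was −1.14 in ND-646, −0.79 in palbociclib, and −0.59 in doxorubicin cells (adjusted p = 0.0367, 0.0107, and 0.0356, edgeR). At 22 to 119 counts per library, smaller differences of this gene were not detectable at this depth and spread.

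**Figure D3:**
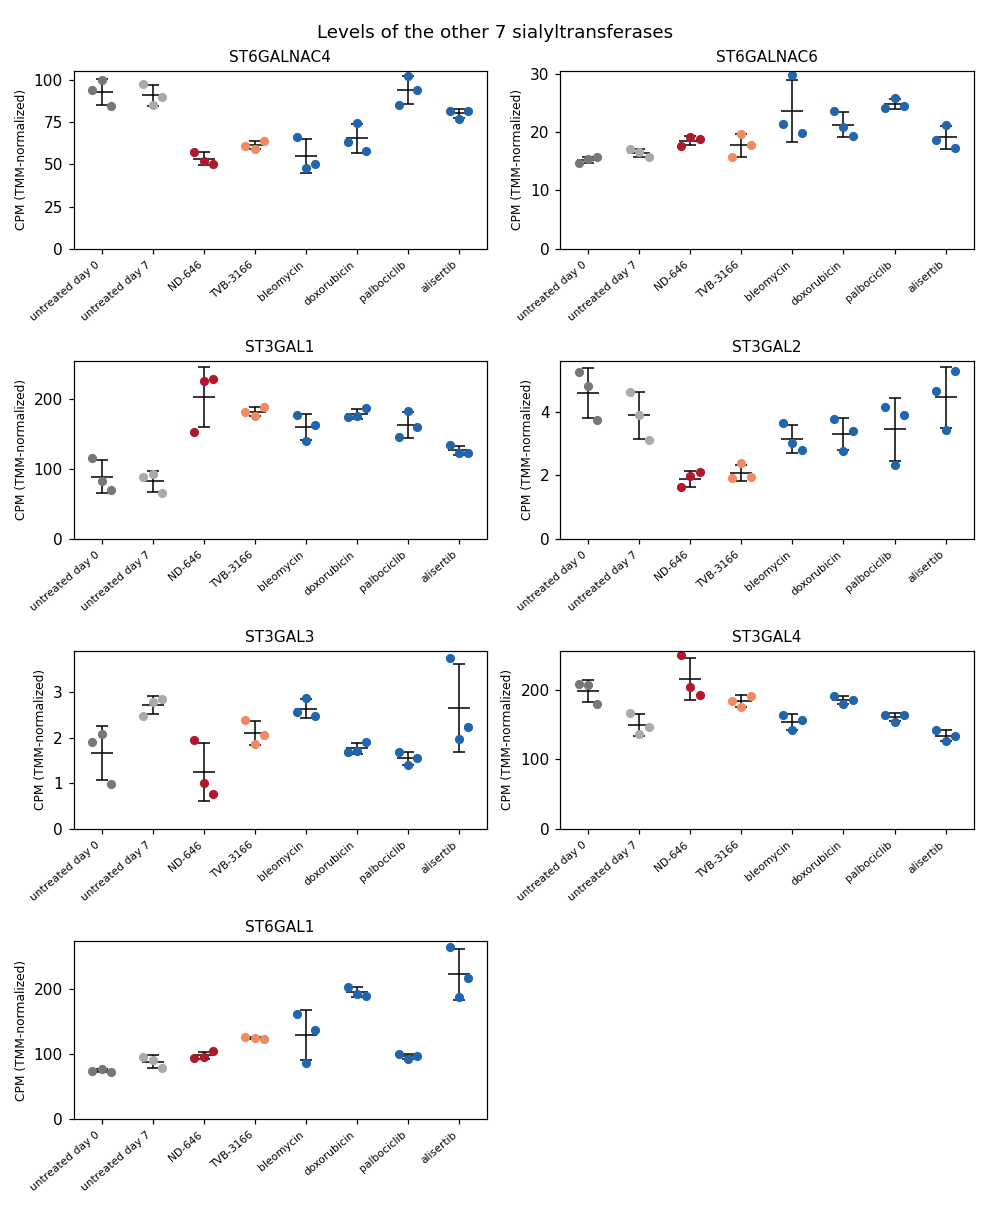
Levels of the 7 genes other than ST6GALNAC2. Each panel has its own linear axis in CPM from 0, each point is 1 library, and bars are the mean ± SD of 3 libraries. ST3GAL1 is above both untreated groups in every TIS group, and ST6GAL1 reaches its highest mean, 222 CPM, in alisertib cells.

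Over both references, ST3GAL1 was called higher in 6 of 6 TIS groups against day-0 and in 6 of 6 against day-7 cells. ST6GAL1 was called higher in 6 and 4 groups, respectively. ST6GALNAC4 was called lower in 4 groups, ST6GALNAC6 higher in 3, and ST3GAL2 lower in 2, with either reference. The called share of all genes against day-7 cells was 34.2% with ND-646, 51.5% with TVB-3166, 45.6% with bleomycin, 43.4% with doxorubicin, 44.8% with palbociclib, and 19.0% with alisertib. The treated libraries are the same in both sets of comparisons.

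**Figure D4:**
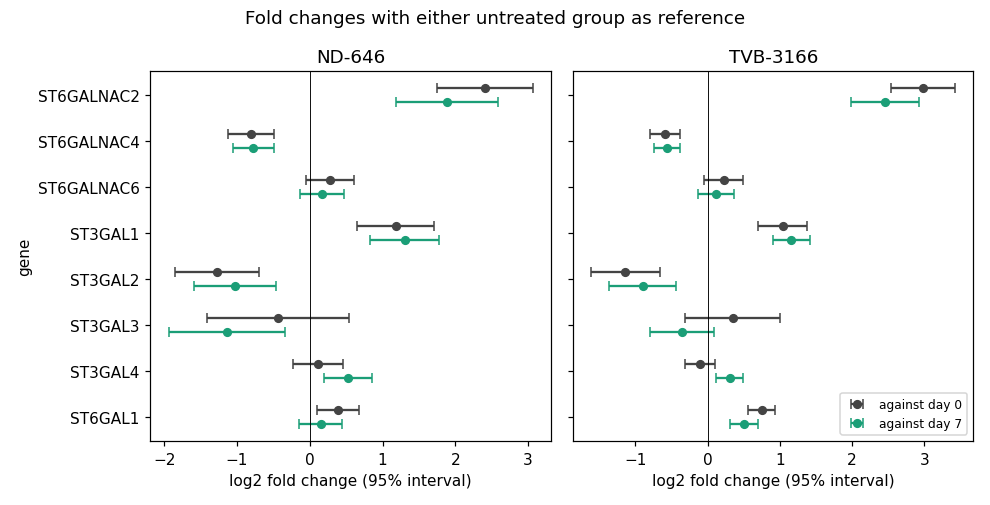
Log2 fold changes of the 8 genes in ND-646 (left) and TVB-3166 cells (right) against untreated day-0 (dark) and day-7 cells (green). Points are estimates from edgeR and bars are 95% intervals. Those of ST6GALNAC2 are no test, since the gene was chosen by these levels. The signs of ST3GAL4 and ST3GAL3 in TVB-3166 cells turn with the reference, from −0.10 to 0.30 and from 0.35 to −0.36.

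Between the untreated groups 0 of the 7 genes were called by edgeR in the fit of these 6 libraries, where 0.587% of all genes were called. At an unadjusted p-value under 0.05 there were 3 of 7, ST3GAL3, ST3GAL4, and ST6GAL1, and 1 gene, ST3GAL4, was called by DESeq2 and also by edgeR in a fit of all 24 libraries and with a replicate block (adjusted p = 0.0137, 0.0295, and 0.0294). The log2 difference of ST3GAL4 was −0.40 (SE 0.10, adjusted p = 0.0833, edgeR), that of ST3GAL3 was 0.72 (adjusted p = 0.166), and that of ST6GAL1 was 0.26 (adjusted p = 0.156, edgeR). All 3 day-7 libraries lay to the same side of all 3 day-0 libraries for each of these genes. No share of all genes is given here for the unadjusted, DESeq2, or non-overlap counts. They are read gene by gene and not as a result about the family.

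To compare the inhibitors of fatty acid synthesis with each other, TVB-3166 cells were set against ND-646 cells, 2 agents that act on successive enzymes of this pathway. Of the 7 genes, 0 were called by edgeR, where 0.717% of all genes were called, while 1 had an unadjusted p-value under 0.05 and DESeq2 called 1. Both were ST6GAL1, which was 0.35 higher in TVB-3166 cells (95% interval 0.11 to 0.60, adjusted p = 0.187, edgeR). The interval was −0.54 to 0.25 for ST3GAL1, −0.05 to 0.47 for ST6GALNAC4, and −0.40 to 0.67 for ST3GAL2. Without ND-646 replicate 1, 3 genes were called, ST3GAL1 (−0.32), ST3GAL3 (1.24), and ST6GAL1 (0.33). The shares of all genes at the unadjusted threshold, by DESeq2, and without that library are not given here. ST3GAL5, which makes the ganglioside GM3 and was measured beside the 8 genes, was called higher in TVB-3166 cells by 1.03 (adjusted p = 0.0432, edgeR), with 12.7, 13.2, and 13.7 CPM against 7.35, 5.72, and 6.42 CPM.

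The FASTIS groups were then compared with the 4 other TIS groups, as the mean of ND-646 and TVB-3166 against the mean of bleomycin, doxorubicin, palbociclib, and alisertib in a fit over all 24 libraries. Of the 7 genes 6 were called, where 51.0% of all genes were called. ST3GAL2 was lower in FASTIS cells by a log2 difference of −0.83 (SE 0.15), ST6GAL1 by −0.46 (SE 0.09), ST6GALNAC4 by −0.33 (SE 0.07), and ST6GALNAC6 by −0.28 (SE 0.08). The adjusted p-values were 7.85e-05, 0.000332, 0.000559, and 0.00545 (edgeR). ST3GAL4 was higher by 0.34 (SE 0.06) and ST3GAL1 by 0.31 (SE 0.10), with adjusted p-values of 6.98e-05 and 0.0133 (edgeR). ST3GAL3 did not pass, at −0.37 (adjusted p = 0.102, edgeR), and passed without ND-646 replicate 1, at −0.61 (adjusted p = 0.00785). None of the 7 differences reached a 2-fold change, which 7.09% of all genes did, and for each of the 7 the FASTIS libraries overlapped the range of the 12 others. The share of all genes without such an overlap is not given here. ST6GALNAC2, given without a test, was higher by 2.76.

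The 5 genes whose log2 CPM followed ST6GALNAC2 most closely over the 24 libraries, among 14077 genes compared, were LRTOMT, TTC39A, FDPS, IDI1, and KCNJ11. Pearson's r was 0.960, 0.934, 0.931, 0.925, and 0.925. These values are a description of libraries that fall into separate groups, and the points share the line and the normalization. FDPS and IDI1 are enzymes of isoprenoid synthesis in the mevalonate pathway. FDPS averaged 166, 801, and 790.3 CPM in the day-0, ND-646, and TVB-3166 groups, and IDI1 averaged 181, 593, and 762 CPM. FDPS has pseudogene copies that may share its reads. KCNJ11, a potassium channel subunit, averaged 11.7, 25.8, and 24.8 CPM, and LRTOMT 15.1, 30.1, and 32.0 CPM. Among the other sialyltransferases, r with ST6GALNAC2 ran from −0.70 for ST3GAL2 to 0.47 for ST3GAL4, and was −0.01 for ST6GAL1.

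**Figure D5:**
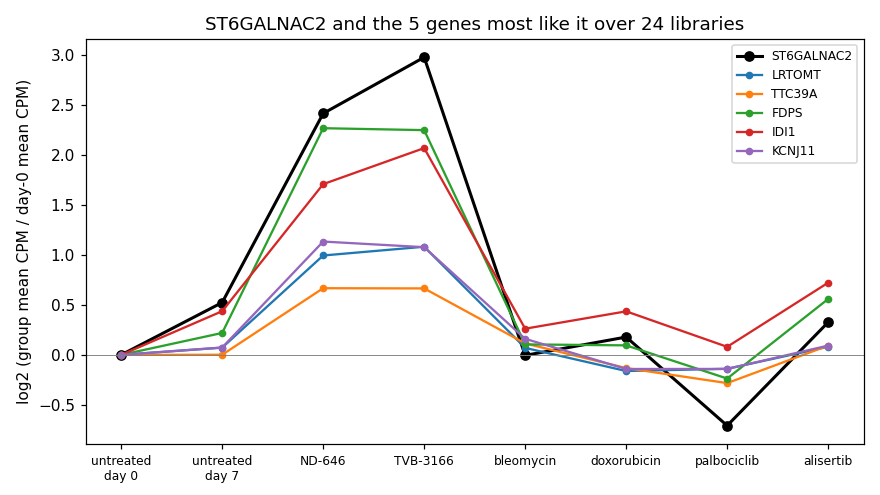
Group means of ST6GALNAC2 and of the 5 genes most like it over 24 libraries. The vertical axis is the log2 ratio of a group's mean CPM to the day-0 mean, the horizontal axis lists the 8 groups, and lines only join the points of a gene. All 6 genes are highest in ND-646 and TVB-3166 cells, and ST6GALNAC2 has the widest span. The shared peak follows from the choice of the 5 genes by their likeness to ST6GALNAC2 in these libraries.

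Genes of the enzymes that supply and remove sialic acid, of those that build the acceptor chains, and of carrier proteins were taken from lists. Their changes are against day-0 cells unless another comparison is named. The 2 genes named from each list are those with the largest called change in ND-646 or TVB-3166 cells. Their calls in these groups partly follow from that choice. Comparisons of FASTIS with the other TIS groups use the same libraries. Of all genes tested against day-0 cells, 19.1% rose and 18.8% fell with ND-646, and 27.4% rose and 27.7% fell with TVB-3166. The shares were 24.1% and 25.3% with bleomycin, 23.7% and 24.8% with doxorubicin, 26.0% and 27.2% with palbociclib, and 17.7% and 19.6% with alisertib. Of 6 genes of sialic acid synthesis and transport, 3 rose and 0 fell in ND-646 cells (median log2 fold-change 0.54, against 0.02 for all genes), and 4 rose and 1 fell in TVB-3166 cells (median 0.46, against −0.01). In the other TIS groups 3 to 4 rose and 1 fell, with medians from 0.32 (doxorubicin) to 0.64 (palbociclib). Against day-7 cells 1 rose with ND-646 and 2 rose with TVB-3166, and 0 fell with either. GNE, which starts sialic acid synthesis, rose against day-0 cells in all 6 TIS groups. The log2 fold-change was 1.01 in ND-646, 0.56 in TVB-3166, and 1.42 in doxorubicin cells (adjusted p = 0.00181, 0.0112, and 7.97e-05, edgeR). GNE was also 0.86 higher in untreated day-7 cells, which did not pass the test (adjusted p = 0.0543, edgeR). Its mean in day-7 cells, 13.0 CPM, lay above those with TVB-3166 (10.6) and alisertib (12.4). The other TIS groups had means of 14.6 (ND-646) to 19.2 CPM (doxorubicin). SLC17A5, the lysosomal exporter of sialic acid, rose against day-0 cells in all 6 TIS groups as well, from 0.67 with alisertib to 1.74 with ND-646 (adjusted p = 0.00102 and 4.71e-05, edgeR).

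Of 6 measured genes of sialic acid removal and editing, 3 rose and 2 fell in ND-646 cells, and 4 rose and 2 fell in TVB-3166 cells. The medians were 0.33 and 0.38. In the other TIS groups 2 to 3 rose and 0 fell, with medians from 0.05 (bleomycin) to 0.50 (palbociclib). NEU1, the lysosomal sialidase, rose by 1.31 and 1.10 in ND-646 and TVB-3166 cells (adjusted p = 0.00382 and 2.34e-05, edgeR) and by 0.52 in bleomycin cells (adjusted p = 0.00399). It was 1.02 higher in FASTIS than in the other TIS groups (adjusted p = 9.55e-08, edgeR). NPL, which breaks sialic acid down, fell by 1.53 in ND-646 and by 0.91 in TVB-3166 cells (adjusted p = 0.0100 and 0.0255, edgeR), at 7 to 88 counts per library. Its mean in bleomycin cells, 0.677 CPM, was near that in TVB-3166 cells (0.626) and under that in day-0 cells (1.18), though it was not called lower. Doxorubicin, alisertib, and palbociclib cells had means of 1.10, 1.55, and 1.91 CPM.

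RNAs of enzymes that build the acceptor chains changed in part, and the chains themselves were not measured. ST6GALNAC2, ST6GALNAC4, ST3GAL1, and ST3GAL2 act on mucin-type O-glycans. Of 15 measured genes that start and build these chains, 5 rose and 3 fell in ND-646 cells (median 0.31). In TVB-3166 cells 8 rose and 3 fell (median 0.28). In the other TIS groups 2 to 9 rose and 2 to 3 fell, with medians from −0.27 (bleomycin) to 0.38 (palbociclib). GALNT3, which starts these chains, rose by 1.57 and 1.01 with ND-646 and TVB-3166, and GALNT7, which adds to started chains, by 1.30 and 1.09 (adjusted p = 0.000107, 1.89e-05, 0.000624, and 1.23e-05, edgeR). Both were higher in FASTIS than in the other TIS groups, by 0.92 and 0.91 (adjusted p = 4.09e-10 and 1.66e-09, edgeR). This comparison uses the libraries by which the 2 genes were picked.

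Of 13 genes of galactosylation and lactosamine chains, on which ST6GAL1, ST3GAL3, and ST3GAL4 act, 5 rose and 2 fell in each of ND-646 and TVB-3166 cells (medians 0.25 and 0.23). In the other TIS groups 1 to 6 rose and 1 to 2 fell, with medians from 0.04 (alisertib) to 0.19 (doxorubicin). With ND-646 and TVB-3166, FUT3, a fucosyltransferase of Lewis antigens, rose by 2.17 and 1.78 (adjusted p = 0.00151 and 0.000281, edgeR). MGAT4B, an N-glycan branching enzyme, rose by 0.95 and 0.48 (adjusted p = 0.00259 and 0.000798, edgeR). FUT3 has near-identical copies with which it may share reads, so its level is uncertain. FUT3 was also called higher with bleomycin, doxorubicin, and palbociclib, by 1.92, 1.67, and 1.58.

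Of 7 measured glycosphingolipid enzymes, 2 rose and 3 fell in ND-646 cells, and 3 rose and 3 fell in TVB-3166 cells (medians 0.45 and 0.01). In the other TIS groups 1 to 4 rose and 0 to 3 fell, with medians from −0.28 (palbociclib) to 0.65 (bleomycin). With ND-646 and TVB-3166, B4GALNT1, which makes the gangliosides GM2 and GD2, fell by 1.05 and 1.85 (adjusted p = 0.0231 and 0.000764, edgeR). B4GALT6, a lactosylceramide synthase, fell by 1.76 and 0.75 (adjusted p = 0.00602 and 0.0243, edgeR). Both were scarce, at 17 to 210 counts per library for B4GALNT1 and 9 to 124 for B4GALT6. ST3GAL5, which uses lactosylceramide, rose in TVB-3166 cells by 0.64 (adjusted p = 0.00397, edgeR) and was −0.39 in ND-646 cells (adjusted p = 0.166). It fell with bleomycin, doxorubicin, and palbociclib by 1.13, 1.05, and 0.78 (adjusted p = 0.00531, 0.00342, and 0.00309, edgeR).

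Of 8 measured genes whose proteins carry sialylated chains, 4 rose and 1 fell in ND-646 cells. In TVB-3166 cells 5 rose and 1 fell (medians 0.61 and 0.72). With bleomycin and with doxorubicin 4 rose and 0 fell (medians 0.48 and 0.11), with palbociclib 3 rose and 2 fell (−0.01), and with alisertib 2 rose and 1 fell (0.01). CD44, the hyaluronan receptor, rose by 1.37 and 1.70 (adjusted p = 0.000285 and 1.21e-06, edgeR), and by 2.47 with bleomycin and 2.21 with doxorubicin (adjusted p = 2.42e-05 and 2.04e-05, edgeR). Its difference between FASTIS and the other TIS groups was 0.04 and did not pass the test (adjusted p = 0.758, edgeR). CEACAM5, a heavily glycosylated adhesion protein, rose by 4.01 and 3.87 (adjusted p = 1.52e-05 and 1.97e-07, edgeR). It also rose with bleomycin and doxorubicin, by 2.01 and 1.33, fell with palbociclib by 1.05 (adjusted p = 0.000153, 0.000434, and 0.0218, edgeR), and was −0.05 with alisertib (adjusted p = 0.885). Sialic acid on the cells, enzyme activity, and protein levels were not analysed here.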

How the data were processed

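RNA of 24 SKBR3 libraries was sequenced by the authors, aligned to GRCh37 with HISAT2, assembled with StringTie, and compared with DESeq2, per the submitters' processing notes and the paper's methods. The deposited values are whole-number read counts per gene, not normalized. A stranded kit for total RNA stands in the methods and one for mRNA in the labels, and the use of strand in counting is not given in the sources used here. Since the lowest deposited count was 1, a gene with 0 reads in some library was not tested. Totals were 29405121 to 44316330 counts per library. Groups were taken from the labels, and no replicate pair was identical (lowest chi-square per degree of freedom 13.4).

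The 2-sided quasi-likelihood test of edgeR 4.0.16 (R 4.3.3; glmQLFit, then glmQLFTest) followed filterByExpr and TMM scaling, with the 6 libraries compared in each fit and all 24 for FASTIS against other TIS, Benjamini-Hochberg adjusted over all genes tested and called at 0.05. CPM are TMM-scaled over 24 libraries (prior count 2 on the log2 scale). With 3 libraries against 3, an exact permutation test cannot go below p = 0.1, so single genes were tested in the fit across all genes. Deviations from the group mean were correlated between ND-646 and TVB-3166 libraries of the same number (0.213 to 0.380, all 3 over 0.1). This was also so for untreated day-7 cells with bleomycin (0.107 to 0.142) and with alisertib (0.105 to 0.218), and not in any comparison with day-0 cells. Between groups of the FASTIS contrast it held for ND-646 with bleomycin (0.109 to 0.376). It held for TVB-3166 with bleomycin (0.131 to 0.332), palbociclib (0.124 to 0.272), and alisertib (0.162 to 0.290). Among the other TIS groups it held for bleomycin with palbociclib and alisertib, and for palbociclib with doxorubicin and alisertib. The main tests used no pairing. The replicate number as a block was run only as an alternative, and not with day-7 cells as the reference.

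The members and gene lists were chosen with earlier results of these data known. All 8 members are named, from each list the 2 genes with the largest called change in ND-646 or TVB-3166 cells, and the 5 genes most like ST6GALNAC2. Exon positions are from GENCODE on GRCh37 and promoters from RefSeq on GRCh38.p14. Alternatives were DESeq2 1.42.0, RLE size factors, all genes unfiltered, a minimum of 10 counts per library, a single fit of 24 libraries, day-7 cells as the reference, a replicate block, leaving out each library, and, added after seeing the data, a fold-change of at least 2. The test was checked on simulated data.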

Additional observations from a re-analysis of the deposited data

How the results depend on the processing

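Alternatives were run for 9 comparisons. Apart from left-out libraries, 448 of 480 values kept their direction and side of the threshold, or stayed within the spread of replicates, and 493 of 528 did so when 1 library was left out. With a fold-change of at least 2 required too, a rule added after seeing the data, the number of the 7 genes called fell to 2 for ND-646, 2 for TVB-3166, 0 for bleomycin, 2 for doxorubicin, 0 for palbociclib, 1 for alisertib, and 0 for FASTIS against the other TIS groups, since most changes were smaller. Between the untreated groups, DESeq2, a fit over all 24 libraries, and the replicate block each called 1 gene, ST3GAL4 (−0.41, −0.41, and −0.40), where edgeR on the 6 libraries without a block called 0. Between TVB-3166 and ND-646 cells DESeq2 called 1, and leaving out each library gave 0 to 3 genes, 3 without ND-646 replicate 1.

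With the replicate number as a block, 3 of 7 genes were called with ND-646 (ST6GAL1 0.39, adjusted p = 0.0787, edgeR), 6 with bleomycin, and 4 with alisertib. The block changed no call between TVB-3166 and ND-646 cells. For the block, DESeq2, single-fit, and left-out-library counts, the share of all genes called is not given here. Those counts are not read as a result about the family. Against day-0 cells the samples share only a number.

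With day-7 cells as the reference the sign turned for ST3GAL4 in TVB-3166 (0.30), bleomycin (0.060), doxorubicin (0.33), and palbociclib cells (0.12), for ST3GAL3 in TVB-3166 (−0.36), bleomycin (−0.021), doxorubicin (−0.59), and alisertib cells (−0.028), and for ST3GAL2 in alisertib cells (0.21). Signs also turned when 1 library was left out, for values that had not been called. The ranges were −0.0014 to 0.19 for ST3GAL4 with ND-646, −0.16 to 0.29 for ST3GAL3 with doxorubicin, −0.045 to 0.090 for ST6GALNAC4 and −0.37 to 0.10 for ST3GAL3 with palbociclib, and −0.20 to 0.11 for ST3GAL2 with alisertib. They were −0.093 to 0.039 for ST6GALNAC4 and −0.27 to 0.12 for ST3GAL1 between the untreated groups, and −0.14 to 0.017 for ST6GALNAC6 between TVB-3166 and ND-646 cells. The cause was not tested.

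The call of ST3GAL4 with bleomycin was lost without bleomycin replicate 2, bleomycin replicate 3, or day-0 replicate 2 (adjusted p = 0.0604 to 0.0804, edgeR), and with palbociclib without palbociclib replicate 2 or day-0 replicate 2 (adjusted p = 0.0724 and 0.0695, edgeR). Without day-0 replicate 3, ST3GAL2 was called with doxorubicin (−0.59) and ST6GALNAC4 with alisertib (−0.28). ST6GALNAC6 with alisertib was called by DESeq2, with RLE size factors, with a minimum of 10 counts, and with the block (0.32 to 0.33), and ST3GAL2 with bleomycin in the fit of 24 libraries and with the block (−0.55 and −0.54). The depth limits mainly ST3GAL2, ST3GAL3, and ST6GALNAC2, whose counts fell to 38, 22, and 41 in the lowest library.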
